A study of Mus musculus with 24 samples.

Results

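The mitochondrial respiratory chain ends with cytochrome bc1 (complex III), cytochrome c oxidase (complex IV) and ATP synthase (complex V), and the messenger RNAs of their nuclear genes are described here in mouse gastrocnemius, a calf muscle. Members were the protein-coding nuclear genes whose symbol, looked up from the Ensembl identifier, began with Uqcr, with Cox and a digit, or with Atp5. The rule took 53 of the 55416 genes in the count table, namely 8 for complex III, 27 for complex IV and 18 for complex V. A level was high enough to test for 49 of them (8, 24 and 17). The 4 others were the germ cell isoforms Cox6b2, with 102 reads in the 24 libraries together, Cox8c, with 3, and Cox7b2, with 0, and a second Atp5o identifier (ENSMUSG00000116933), also with 0. The symbols are the older ones, so that Atp5g1, Atp5g2 and Atp5g3 are the genes of the ATP synthase c subunit, and Atp5e is the gene of the epsilon subunit. The rule left out 9 processed pseudogenes with names of the same form, and the largest of them, Atp5l-ps1, held 278 reads in total.

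Complex III passes electrons from ubiquinol to cytochrome c and moves protons across the inner mitochondrial membrane. Complex IV hands those electrons to oxygen, and complex V lets the protons flow back through a rotating ring of c subunits and makes ATP in its F1 head. The catalytic centres of complexes III and IV and the membrane part of complex V hold subunits encoded by the mitochondrial genome, and the nucleus encodes the rest, so that both genomes supply each complex. Striated muscle uses its own versions of several complex IV subunits, such as Cox6a2, Cox7a1 and Cox8b, where most other tissues use Cox6a1, Cox7a2 and Cox8a.

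The study compared sham mice, which were ambulatory, with mice kept for 8 weeks in a small mouse cage (SMC) that restricts movement, as a model of a sedentary life. All animals were wild type, of the strain the labels write as C56BL6J (C57BL/6J in the study's methods, bought at 8 weeks of age), and no group carried a transgene. Each sex had 6 sham and 6 SMC mice, with 1 library per mouse, and replicates are named by their number in the labels, 1 to 24. Total counts lay between 23026627 and 36880413 per library (median 27461328). Levels are given as reads scaled to library size (CPM, with TMM sizes), and differences as log2 fold changes with their standard error (SE). An adjusted p is that of the quasi-likelihood test of edgeR, adjusted by Benjamini-Hochberg over the 16408 genes tested, unless an exact permutation test is named. A gene was called at an adjusted p under 0.05. RNA came from whole muscle, so fewer cells of a type and less RNA per cell cannot be told apart.

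Muscle messengers were abundant in every library, with Ckm, the muscle creatine kinase, at no less than 10112 CPM, and Ucp1, a brown fat gene, did not exceed 0.0383 CPM. Male sham replicate 4 and female sham replicate 7 stood apart: the 10 slow fibre genes summed to 93.0 and 73.7 CPM there, against 701 to 4493 CPM in the other 22 libraries. Male sham replicate 4 was also the lowest male sham library for 42 of the 49 members, male SMC replicate 14 the lowest of its group for 42, and female sham replicate 7 the lowest of its group for 23. Of the 11 marker lists, none had a gene called in either sex, and the summed adipocyte genes overlapped between sham and SMC in males (66.7 to 129.2 against 73.4 to 89.9 CPM) and in females (64.1 to 124.1 against 75.6 to 215.6 CPM). In females 3 of 4 tendon cell genes and 2 of 4 fibroblast genes had an unadjusted p under 0.05 (all genes 12.5%). In males 1 of 4 endothelial cell genes and 1 of 4 Schwann cell genes did (all genes 11%). No other tested marker gene passed that level in either sex. The slow fibre genes had a median log2 fold change for SMC of 0.51 in males and 0.61 in females, the adipocyte genes of -0.24 and 0.79, the tendon cell genes of -0.06 and -0.87 and the fibroblast genes of -0.02 and -0.42. It was -0.43 and 0.05 for the red blood cell genes, 0.34 and 0.11 for the Schwann cell genes and -0.60 and -0.56 for the 1 tested brown adipocyte gene. The part of these genes in the results below was not tested beyond the slow fibre covariate.

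Short stretches of promoter show where the upstream regions of single members carry known control motifs. A window of 250 bases before the transcription start was available from RefSeq (GRCm38.p6) for 38 of the 49 tested members. The cores searched on both strands were GCATGCGC for NRF1, TCAAGGTCA for ERR-alpha, CCGGAAGT for GABP (also called NRF-2) and AAGATGGC for YY1, factors known to drive nuclear genes of oxidative phosphorylation. At least 1 core was found for 12 of the 38 members (31.6%), for 12.8% of the 10965 tested genes with a window and for 7.68% of all 27025 genes with one. NRF1 cores were found for 4 members (10.5%, against 4.69% of tested and 2.56% of all genes). GABP cores were found for 5 (13.2%, against 6.33% and 3.23%), YY1 cores for 2 (5.26%, against 2.28% and 1.83%) and an ERR-alpha core for 1 (2.63%, against 0.301% and 0.422%). Of the 12 members with a match, the 7 that the rule for named genes took are printed as 30 bases on the gene's strand, 5′ to 3′, with the core in capitals. The NRF1 core is close to its own reverse complement, so that both strands match within 1 run of 10 letters in the first 2 sequences. Distances are counted from the RefSeq start. GENCODE M21 places the start of Atp5g2 1253 bases before its printed stretch and counts 23 of the 30 bases of Atp5h and 1 of Uqcrh to the gene, so that these stretches lie wholly or partly inside those gene models. A match describes letters and not a bound site.
Atp5g2 (NRF1, 33 to 42 bases before the start, chr15:102671070-102671099, minus strand): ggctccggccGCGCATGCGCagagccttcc
Cox6a1 (NRF1, 153 to 162 bases before the start, chr5:115349101-115349130, minus strand): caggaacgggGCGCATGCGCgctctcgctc
Atp5g3 (ERR-alpha, 44 to 52 bases before the start, chr2:73911360-73911389, minus strand): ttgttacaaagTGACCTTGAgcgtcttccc
Atp5h (GABP, 32 to 39 bases before the start, chr11:115419940-115419969, minus strand): ccaaggagagaACTTCCGGcaactctcttc
Cox16 (GABP, 9 to 16 bases before the start, chr12:81485138-81485167, minus strand): gctcagaagcctcgACTTCCGGgggaggga
Uqcr11 (GABP, 59 to 66 bases before the start, chr10:80406869-80406898, minus strand): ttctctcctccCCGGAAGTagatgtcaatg
Uqcrh (GABP, 4 to 11 bases before the start, chr4:116075071-116075100, minus strand): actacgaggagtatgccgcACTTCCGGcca

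Levels per length spanned more than 2 orders of magnitude among members. On the scale of mean CPM per kb of exon over the 24 libraries, complex III spanned the narrowest range, from 63.2 for Uqcrh, the hinge protein, to 140.1 for Uqcr10, a small subunit. Uqcrfs1, the Rieske iron-sulfur subunit, was second at 125. In complex IV the 2 highest levels were those of the muscle isoforms Cox8b (383) and Cox6a2 (370.3), and the assembly factors filled most of the lower end, with Cox15, which makes heme A, at 4.5 and Cox17, which carries copper to the enzyme, at 1.37. The exon length used for Cox17, 5.773 kb, covers its whole annotated span, which lowers its level per kb and its place in this order. In complex V the alpha and beta subunits of the F1 head, Atp5a1 (365) and Atp5b (352), stood above all other members of that complex, the next being the gamma subunit gene Atp5c1 (107). Alpha and beta alternate around the head and are present in several copies each. Neighbours in this order were often close, and the levels of Cox8b and Cox6a2, or of Atp5a1 and Atp5b, differed by less than the spread between mice.

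**Figure D1:**
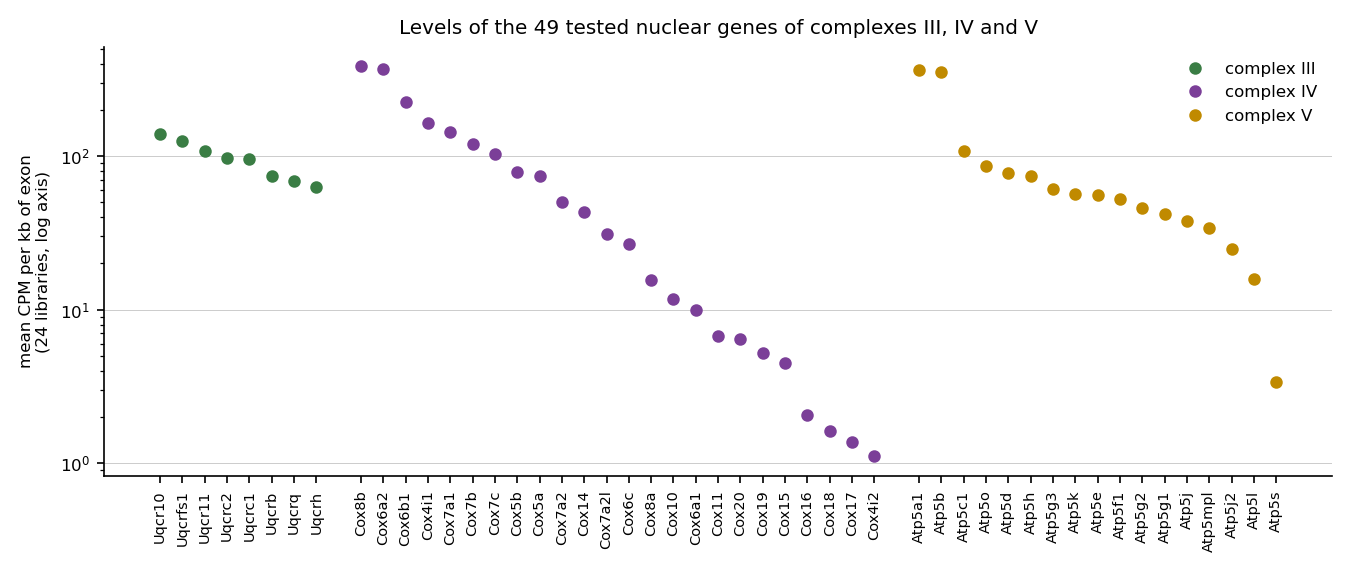
Mean level of each of the 49 tested members over 24 libraries, in CPM per kb of exon on a log axis, ordered within complexes III, IV and V. Cox8b (383), Cox6a2 (370.3), Atp5a1 (365) and Atp5b (352) lie at the top and Cox4i2 (1.11) at the bottom.

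Atp5b illustrates the spread among mice at high depth. Its level ran from 1113 to 1686 CPM (median 1523) in male sham, from 1130 to 1782 CPM (median 1625) in male SMC, from 1248 to 1640 CPM (median 1326) in female sham and from 1331 to 1744 CPM (median 1461) in female SMC. The lowest male sham value was that of replicate 4, and the 4 groups overlapped. Atp5a1 ran from 858 to 1354 CPM (median 1223), from 884 to 1364 CPM (median 1280), from 909 to 1270 CPM (median 1058) and from 962 to 1295 CPM (median 1055) in the same order of groups, again with replicate 4 lowest among male sham mice.

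SMC against sham was then compared in each sex. In males, 41 of the 49 members had a log2 fold change below 0, against 50.9% of all genes, but the shifts were small and no member was called. The median was -0.08 for complex III, -0.08 for complex IV and -0.05 for complex V, against -0.004 over all genes. The 6 lower members of complex III included all 5 small subunits, and its 2 core proteins, Uqcrc1 and Uqcrc2, had positive values. In complex IV all 8 subunits with tissue isoforms, all 6 other structural subunits and Cox7a2l were lower, and the 3 positive values were those of the assembly factors Cox10, Cox15 and Cox18. In complex V all 4 peripheral stalk genes, all 3 c subunit genes and all 4 other membrane subunits were lower.

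The male count moved with single libraries. Without male SMC replicate 14, which was low in most members, 28 of 49 members were below 0 (all genes 51.5%) with a median of -0.02, and without male sham replicate 4 there were 46 (all genes 51.6%) with a median of -0.16. By edgeR no gene at all was called in males (0.00% of 16408), and 2 members, Cox15 and Atp5e, had an unadjusted p under 0.05 (all genes 11%). Without male sham replicate 4 there were 6, with the share of all genes not counted. DESeq2 called 0 members, and limma voom with quality weights called 1, Cox15 (0.567% of all genes). No member separated the 6 sham from the 6 SMC mice, as 0.902% of all genes did.

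In females the members stayed near 0, with 22 of 49 below it, against 52.4% of all genes, and medians of 0.02, 0.02 and -0.003 for complexes III, IV and V. EdgeR called 0 members, against 0.341% of all genes, and 5 had an unadjusted p under 0.05 (all genes 12.5%). Without female sham replicate 7 there were 8, with the share of all genes not counted. Cox15 and Atp5g2 were higher among the 5 and Cox17, Atp5e and Atp5g3 were lower. DESeq2 called 1 member, Cox17 (1.63% of all genes), and voom called 0. The signs depended on whether the slow fibre genes entered the fit. With their score as a covariate, 38 of 49 members were below 0 (all genes 52.3%), the medians became -0.08, -0.04 and -0.10, and Atp5e and Atp5g3 were called (all genes 0.969%). Without the 2 libraries low in slow fibre genes, and with no covariate, the female medians stayed near 0, at -0.003, 0.02 and -0.03.

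**Figure D2:**
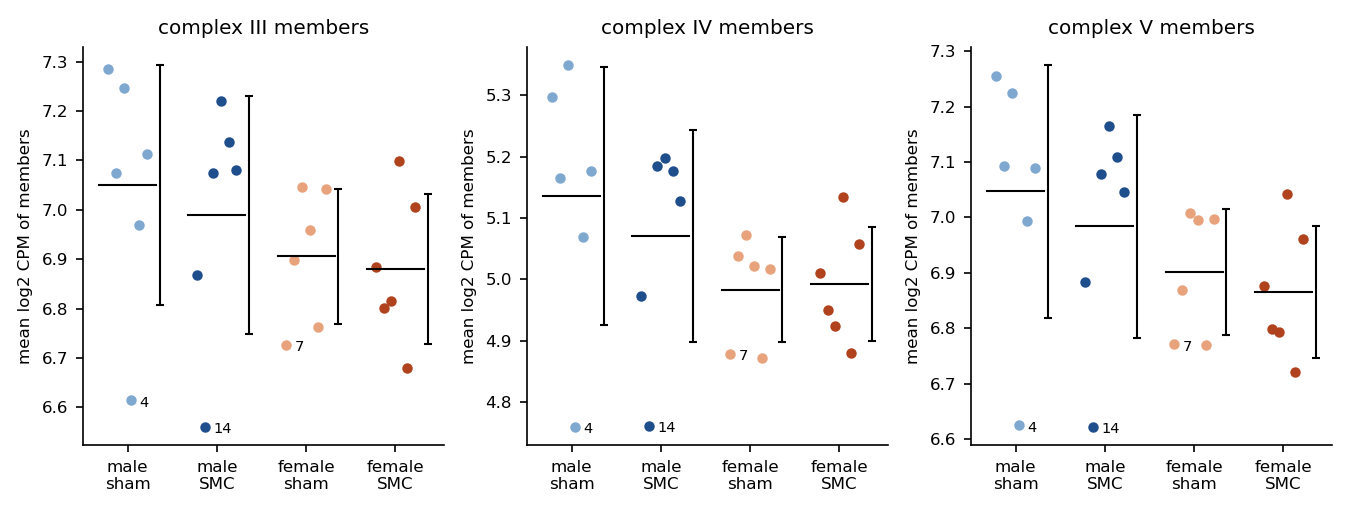
Mean log2 CPM over the tested members of complex III (8 genes), IV (24) and V (17) in each mouse, by group, with a line at the group mean and a bar of ± 1 SD (n = 6), and with the libraries of male sham replicate 4, male SMC replicate 14 and female sham replicate 7 numbered. Replicates 4 and 14 are the 2 lowest points of each panel, and the groups overlap.

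**Figure D3:**
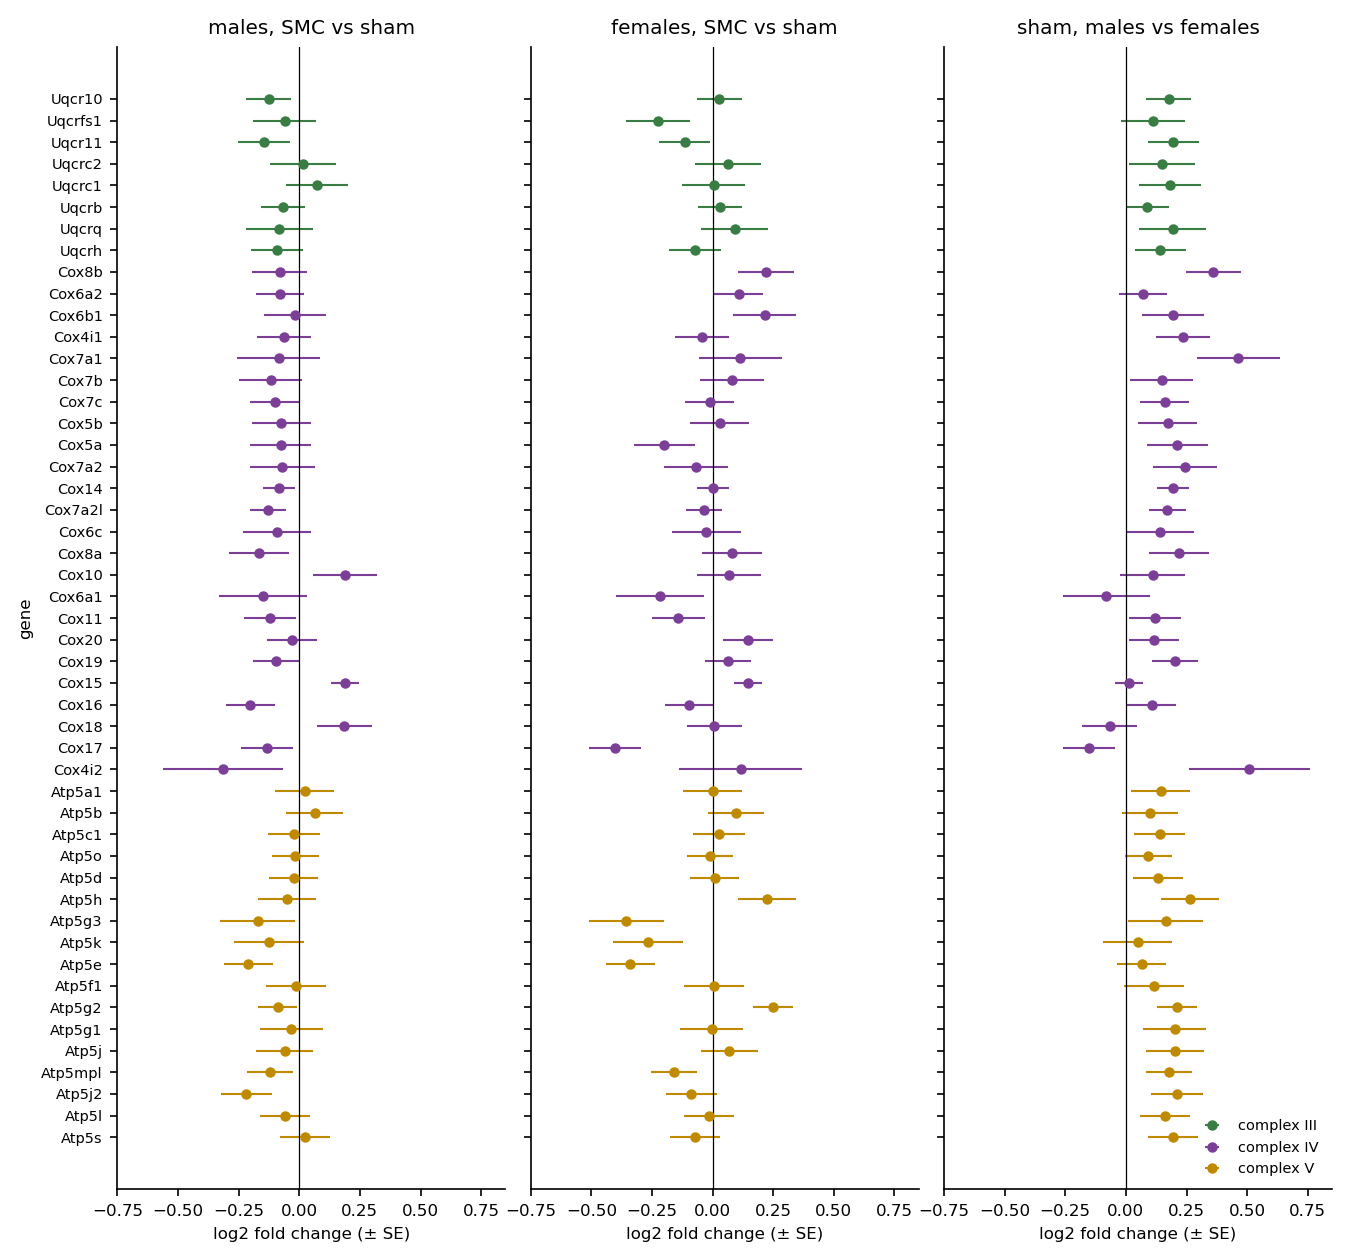
Log2 fold change ± SE of each tested member for SMC against sham in males, in females, and for sham males against sham females (x axis), with genes in the order of level within complex III, IV and V (y axis). Most male points lie left of 0 (41 of 49), female points lie on both sides, and 46 of 49 points of the sham sex comparison lie right of 0.

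With the SMC effect averaged over the sexes, edgeR called 2 of 49 members (all genes 2.36%), 1 in each direction. A further 4 had an unadjusted p under 0.05, which makes 6 (all genes 17.5%), and 32 of 49 were below 0 (all genes 52.4%). Without male sham replicate 4, 12 had an unadjusted p under 0.05, with the share of all genes not counted. The called members were Cox15, which rose, and Atp5e, which fell. With no filter on low counts neither was called (edgeR, adjusted p = 0.103 and 0.0798).

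Cox15 (ENSMUSG00000040018, chromosome 19, 43733254 to 43753000, minus strand, GRCm38) makes the heme A that complex IV holds. Its level ran from 19.1 to 22.3 CPM (median 21) in male sham and from 22.1 to 24.7 CPM (median 24.1) in male SMC mice. It ran from 17.4 to 22.5 CPM (median 21.3) in female sham and from 22.2 to 24 CPM (median 22.9) in female SMC mice. In each sex 5 of the 6 SMC mice lay above the highest sham mouse, and the groups overlapped through 1 SMC mouse, replicate 14 in males and replicate 23 in females. The log2 fold change averaged over the sexes was 0.17 (SE 0.04, adjusted p = 0.0315), with 0.19 (SE 0.06, adjusted p = 0.217) in males and 0.15 (SE 0.06, adjusted p = 0.279) in females. The difference between the sexes was 0.04 (SE 0.08, adjusted p = 0.997). The averaged value stayed between 0.14 and 0.18 when each library was left out in turn, but Cox15 was called in only 8 of those 24 fits (without male sham replicate 1, 3 or 5, female sham replicate 7, 8, 9 or 10, or male SMC replicate 14), with adjusted p from 0.0293 to 0.0703. Of its exon bases in GENCODE M21, 9.04% also belong to Entpd7 on the other strand, at 2.63 CPM.

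Atp5e (ENSMUSG00000016252, chromosome 2, 174461072 to 174464105, minus strand, GRCm38) encodes the epsilon subunit, part of the central stalk that the c ring turns. Its level ran from 86.3 to 133 CPM (median 110.2) in male sham and from 79.97 to 118 CPM (median 94.3) in male SMC mice. It ran from 94 to 119.9 CPM (median 105) in female sham and from 72 to 92.4 CPM (median 82.6) in female SMC mice. The male groups overlapped, whereas every female SMC mouse lay below every female sham mouse, the only member for which this held in that sex (1.03% of all genes separated the female groups). The averaged log2 fold change was -0.27 (SE 0.07, adjusted p = 0.0421), with -0.34 (SE 0.10, adjusted p = 0.124) in females and -0.21 (SE 0.10, adjusted p = 0.452) in males. The sexes differed by 0.13 (SE 0.14, adjusted p = 0.997). Left-out libraries moved the averaged value between -0.31 and -0.25, and Atp5e was called in 8 of 24 such fits (without male sham replicate 4 or 5, female sham replicate 7, 9 or 11, male SMC replicate 16, or female SMC replicate 22 or 24), with adjusted p from 0.0205 to 0.0768. The other 4 tested genes of the F1 head and central stalk had averaged values from -0.01 (Atp5d) to 0.08 (Atp5b), and none of them was called.

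Cox17 (ENSMUSG00000046516, chromosome 16, 38346991 to 38352763, plus strand, GRCm38), the copper chaperone of complex IV, was not called by edgeR in the fit with all libraries. It ran from 6.25 to 10.8 CPM (median 9.22) in female sham and from 5.71 to 7.46 CPM (median 7.22) in female SMC mice. Of the 6 female sham mice 5 lay above every female SMC mouse, and replicate 12 lay among the SMC values. In males it ran from 6.79 to 8.8 CPM (median 8.45) in sham and from 6.82 to 8.46 CPM (median 7.34) in SMC mice, with overlap. The log2 fold change was -0.40 (SE 0.11, adjusted p = 0.0967) in females, -0.13 (SE 0.11, adjusted p = 0.714) in males and -0.27 (SE 0.08, adjusted p = 0.059) on average. Without female sham replicate 12 the female value was -0.48 (adjusted p = 0.0458). That was the only 1 of the 24 fits leaving out 1 library that called Cox17 in females, with adjusted p from 0.0458 to 0.204. The averaged value was called in 2 of those 24 fits (without male sham replicate 4 or female sham replicate 12), with adjusted p from 0.0156 to 0.0994. On average over the sexes Cox17 was called together with Cox15 and Atp5e by DESeq2 (3 of 49 members, all genes 4.74%), by voom (3 of 49, all genes 3.30%) and without male sham replicate 4 and female sham replicate 7 (3 of 49, all genes 3.18%). With the slow fibre score as covariate 5 members were called (all genes 4.24%), these 3 and the complex V genes Atp5g3 and Atp5j2.

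**Figure D4:**
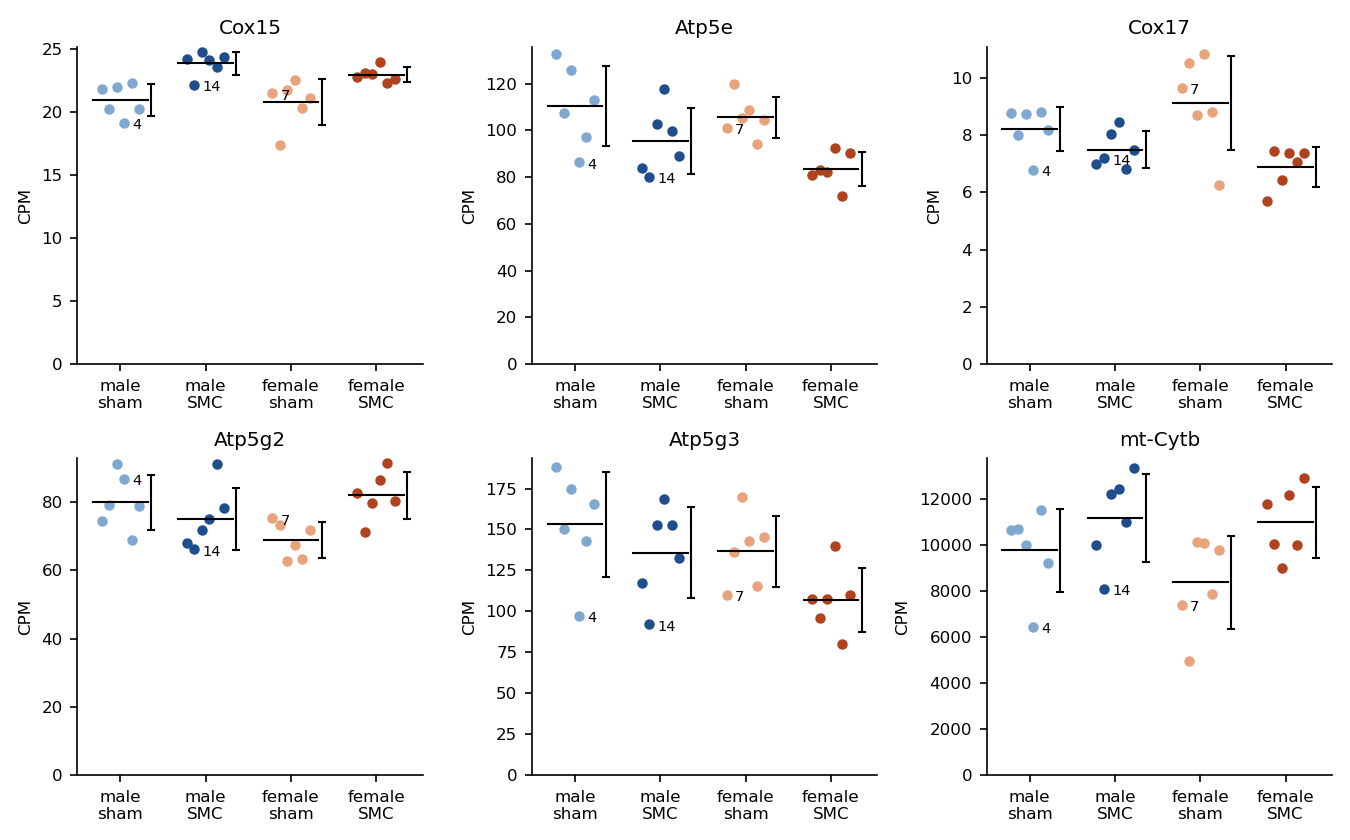
CPM of Cox15, Atp5e, Cox17, Atp5g2, Atp5g3 and mt-Cytb in each mouse, by group, on axes that start at 0, with a line at the group mean, a bar of ± 1 SD (n = 6) and the libraries 4, 7 and 14 numbered. Female SMC mice lie below all female sham mice for Atp5e, and 5 of 6 SMC mice of each sex lie above all sham mice for Cox15.

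The 3 genes of the c subunit encode the same mature protein with different import sequences, and in females their messengers had log2 fold changes of both signs. Atp5g2 ran from 62.8 to 75.3 CPM (median 69.7) in female sham and from 71.2 to 91.6 CPM (median 81.5) in female SMC mice, with 5 of 6 SMC mice above every sham mouse. Atp5g3 ran from 110.0 to 169.8 CPM (median 139) in female sham and from 80.1 to 139.8 CPM (median 107) in female SMC mice, with overlap. The log2 fold changes in females were 0.25 (SE 0.08, adjusted p = 0.17) for Atp5g2 and -0.36 (SE 0.15, adjusted p = 0.331) for Atp5g3, with unadjusted p of 0.00577 and 0.0303. Neither passed the adjusted threshold in this fit. With the slow fibre score as covariate Atp5g3 was called in females (-0.51, adjusted p = 0.0388) and on average over the sexes (-0.37, adjusted p = 0.0131). Without the 2 libraries low in slow fibre genes, and with no covariate, Atp5g3 was called in neither. Atp5g1 had a mean of 194 ± 19.5 CPM in females under sham and 193 ± 23.5 CPM under SMC (SD, n = 6), and of 223 ± 43.3 and 218 ± 40.5 CPM in males. In males Atp5g2 ran from 68.8 to 91.2 CPM (median 79.1) in sham and from 66.2 to 91.4 CPM (median 73.4) in SMC mice and Atp5g3 from 97.3 to 188 CPM (median 158) and from 92 to 169 CPM (median 142), both with overlap. Atp5g2 was the only member with an unadjusted p under 0.05 for the difference between the sexes in the SMC effect, at -0.34 (SE 0.12, adjusted p = 0.926) and an unadjusted p of 0.00756.

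Over all members, that difference (male effect minus female effect) was below 0 for 34 of 49 (all genes 48.4%), with medians of -0.04, -0.09 and -0.03 for complexes III, IV and V. The count and the signs depended on single libraries and on the slow fibre genes. Without male SMC replicate 14, 21 of 49 members were below 0 (all genes 49%), and without male sham replicate 4 there were 40 (all genes 49.7%). With the slow fibre score as covariate 23 were below 0 (all genes 47.8%), and the medians were 0.01, -0.07 and 0.03. Without male sham replicate 4 and female sham replicate 7 they were -0.10, -0.13 and -0.08. EdgeR, DESeq2 and voom each called 0 members, edgeR called no gene at all (0.00%), and 1 member had an unadjusted p under 0.05 (all genes 5.13%). A difference in response between the sexes was therefore not detectable for any single member at these group sizes. The median SE of the difference was 0.16 over the members, against 0.11 for the effect within females.

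None of the other named members was called under SMC by edgeR with all libraries and no covariate. In complex III, Uqcr11 ran from 62 to 89.7 CPM (median 78.5) in male sham and from 54 to 84.4 CPM (median 71.1) in male SMC mice, and its log2 fold changes of -0.15 in males and -0.12 in females had unadjusted p of 0.181 and 0.287. Uqcrfs1 ran from 154 to 195 CPM (median 165) in female sham and from 113 to 182 CPM (median 147) in female SMC mice, with the smallest female p of complex III (0.0977, edgeR, unadjusted, log2 fold change -0.22). Uqcr10 and Uqcrh gave -0.13 and -0.09 in males, with p above 0.05. In complex IV, Cox16, an assembly factor, gave -0.20 (SE 0.10, adjusted p = 0.469) in males, but 56.8% of its exon bases are shared on the same strand with the gene model Gm20498. Cox7a2l gave -0.13 (SE 0.07, adjusted p = 0.542) in males. In complex V, Atp5j2, a small membrane subunit, gave -0.22 (SE 0.11, adjusted p = 0.458) and Atp5mpl -0.12 (SE 0.09, adjusted p = 0.707) in males. For Cox11 and Cox20, 48.3% and 91.1% of the exon bases lie opposite exons of Tom1l1 and Hnrnpu, and whether the counting used strand is not given in the sources used here.

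Medians of the 4 groups follow for the remaining named members, in the order male sham, male SMC, female sham and last female SMC. In complex III they were 88.3, 83.7, 80.3 and 77.6 CPM for Uqcr10, 87, 78.6, 77 and 72.5 CPM for Uqcrh and 419.6, 465, 349 and 361 CPM for Uqcrc1. In complex IV, Cox16 had medians of 8.65, 7.47, 7.66 and 7.38 CPM and Cox7a2l of 50.1, 46.6, 44.6 and 43.9 CPM. In complex V, Atp5h had medians of 116, 118, 98 and 108 CPM, Atp5j2 of 92.4, 82.7, 79.7 and 74.7 CPM and Atp5mpl of 47, 42.7, 41.3 and 37.7 CPM. In each of these 8 genes the ranges of sham and SMC mice overlapped in both sexes.

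Among the isoform pairs of complex IV, Cox4i1 had medians of 281, 281, 242 and 226 CPM and Cox4i2 of 1.07, 0.938, 0.724 and 0.809 CPM, in the same order of groups. Cox6a2 had 254, 248, 247 and 267 CPM against 7.49, 7.06, 7.65 and 6.51 CPM for Cox6a1. Cox7a2 had 52.8, 49.2, 44.7 and 41 CPM and Cox8a 10.7, 10.2, 9.31 and 9.68 CPM. The female SMC median of Cox8b was 138 CPM and that of Cox7a1 71.8 CPM. In females Cox8b followed Cox17 and Cox15 in order of p within complex IV, with a log2 fold change of 0.22 (SE 0.11, adjusted p = 0.439).

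The muscle isoforms of complex IV held most of the reads of their pairs in every group. Cox6a2 took 97.3% ± 0.36 of the Cox6a2 and Cox6a1 reads in male sham mice (SD, n = 6), 97.4% ± 0.417 in male SMC, 97% ± 0.902 in female sham and 97.5% ± 0.157 in female SMC. Cox8b took between 92.8% ± 0.617 (female sham) and 93.8% ± 0.607 (male SMC) of the Cox8b and Cox8a reads. Cox7a1 and Cox7a2 were closer, and Cox7a1 took 62.6% ± 1.81 of their reads in male sham and 62.1% ± 4.46 in male SMC mice, and 59.1% ± 1.93 in female sham and 62.2% ± 1.84 in female SMC mice. Cox4i2, the lung form of subunit 4, took at most 0.386% ± 0.123 of the reads of its pair with Cox4i1.

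The share of each isoform was compared between groups as a log2 ratio of reads within a library, by an exact permutation test (two-sided, over all relabelings of 6 against 6 mice) with p adjusted over the 15 ratio comparisons. None of the 15 passed an adjusted p of 0.05. The smallest adjusted p was 0.0812, for the ratio of Cox7a1 to Cox7a2 in 2 comparisons. That log2 ratio was 0.53 ± 0.11 in female sham (SD, n = 6), 0.72 ± 0.11 in female SMC and 0.75 ± 0.11 in male sham mice, and it was 0.72 ± 0.27 in male SMC mice. Female SMC exceeded female sham mice by 0.19 (exact permutation p = 0.0108), and male sham exceeded female sham mice by 0.22 (exact permutation p = 0.00866). The female sham group was shared by both comparisons. Without male sham replicate 4 the second difference was 0.25 (exact permutation, adjusted p = 0.0325), and without female SMC replicate 21 the first was 0.21 (exact permutation, adjusted p = 0.0325). Replicate 4 was the only male sham mouse not above every female sham mouse, so leaving it out fixed the p of the second difference at its smallest possible value. Replicate 21 was the lowest female SMC mouse. The ratio of Atp5g1 to Atp5g2 plus Atp5g3 was higher under SMC by 0.12 in males and by 0.12 in females (exact permutation p = 0.0476 and 0.0281, adjusted p = 0.179 and 0.141). In each sex 5 of the 6 SMC mice lay above every sham mouse, while male SMC replicate 14 lay within the male sham range and female SMC replicate 21 below every female sham mouse. Without replicate 21 the female difference was 0.16 (exact permutation, adjusted p = 0.0325). Every remaining female SMC mouse then lay above every female sham mouse, so that p was fixed at its smallest possible value and adds no support. Without female sham replicate 7, the ratio of Cox6a2 to Cox6a1 was higher in female SMC mice by 0.43 (exact permutation, adjusted p = 0.0325), against 0.25 with it (exact permutation, adjusted p = 0.44) and 0.14 without female sham replicate 8 (exact permutation, adjusted p = 0.782). Replicate 7 lay above every female SMC mouse and the other female sham mice below, so leaving it out fixed the first p in the same way.

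**Figure D5:**
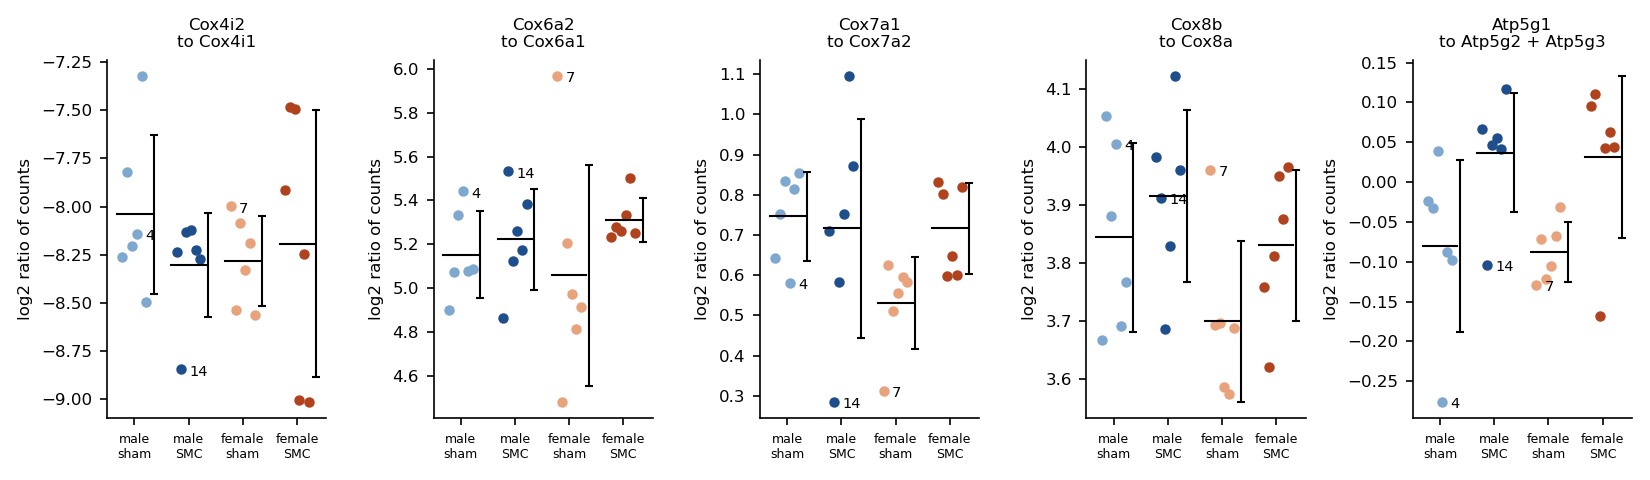
Log2 ratio of reads for 5 isoform comparisons (Cox4i2 to Cox4i1, Cox6a2 to Cox6a1, Cox7a1 to Cox7a2, Cox8b to Cox8a, and Atp5g1 to the sum of Atp5g2 and Atp5g3) in each mouse, by group, with a line at the mean, a bar of ± 1 SD (n = 6) and the libraries 4, 7 and 14 numbered. For Cox7a1 to Cox7a2 the female sham mice average 0.53, below the other 3 groups (0.72 to 0.75), and replicate 7 is the lowest of them.

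The sexes were compared in sham mice, which had no cage restriction. Males were higher for 46 of the 49 members, where 49.6% of all genes were higher in males, and the medians were close to each other at 0.16, 0.17 and 0.16 for complexes III, IV and V, against -0.002 over all genes. The 3 exceptions were the complex IV genes Cox17, Cox6a1 and Cox18. EdgeR, DESeq2 and voom each called 0 members, against 1.97% of all genes by edgeR, and 8 had an unadjusted p under 0.05 (all genes 15.5%), all 8 higher in males, a direction in which 6.23% of all genes passed. No member separated the 6 males from the 6 females (all genes 1.13%). Between male and female sham mice the median summed level was 551 against 216 CPM for the red blood cell genes, 148 against 231 CPM for the tendon cell genes, 770.3 against 933 CPM for the fibroblast genes and 1685 against 2135 CPM for the slow fibre genes. Apart from the slow fibre covariate, their part in the sex comparison was not tested.

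This difference was larger without male sham replicate 4, the male library lowest in slow fibre genes. Then 31 of the 49 members had an unadjusted p under 0.05 and were higher in males (63.3%, against 7.94% of all genes), the median over members was 0.24, and 1 member, Cox7a1, was called (all genes 2.94%). Other libraries moved the count the other way, and 3 members had an unadjusted p under 0.05 without male sham replicate 3, 4 without male sham replicate 1 and 5 without female sham replicate 11. The shares of all genes were not counted for those fits. With the slow fibre score as covariate 2 members were called, Cox7a1 and Atp5h (all genes 4.08%), and the medians of the complexes were 0.16, 0.17 and 0.16. Members share libraries, so 49 values are not 49 independent observations.

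Cox8b, Cox14 and Cox7a1 had the smallest p of complex IV for the sexes in sham mice, and Cox7a1 and Cox8b are muscle isoforms. Cox7a1 ran from 48.9 to 116 CPM (median 92.2) in male sham and from 48.7 to 77 CPM (median 66.3) in female sham mice. Of the 6 males 5 lay above every female, and replicate 4 lay among the lowest females. The log2 fold change was 0.46 (SE 0.17, adjusted p = 0.171), and 0.60 (adjusted p = 0.0325) without replicate 4. Cox8b ran from 123 to 193 CPM (median 153) in male sham and from 106 to 137 CPM (median 117) in female sham mice, with overlap, and differed by 0.36 (SE 0.11, adjusted p = 0.102). Cox14, an assembly factor for the largest mitochondrially encoded subunit, ran from 29.3 to 41 CPM (median 34) and from 28.2 to 30.7 CPM (median 30.01), with a difference of 0.20 (SE 0.07, adjusted p = 0.132). Atp5h, the d subunit of the peripheral stalk, differed by 0.26 (SE 0.12, adjusted p = 0.28) and Atp5g2 by 0.21 (SE 0.08, adjusted p = 0.195). In complex III the values were 0.20 for Uqcr11, 0.18 for Uqcr10 and 0.18 for the core protein Uqcrc1, with unadjusted p of 0.0764, 0.0708 and 0.17.

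The 6 subunits of the same complexes that the mitochondrial genome encodes had log2 fold changes for SMC above 0 in both sexes, where 50.9% of all genes in males and 52.4% in females were below 0, with medians of 0.21 in males and 0.37 in females. The median of the nuclear members was -0.08 in males and 0.00 in females, and the difference between the genomes was not tested. None of the 6 was called in males and 1, mt-Co2, in females, and unadjusted p was under 0.05 for 0 and 3 of them (all genes 0.00% and 0.341% called, and 11% and 12.5% at that p). Mt-Cytb, the cytochrome b of complex III, ran from 4985 to 10139 CPM (median 8842) in female sham and from 8991 to 12923 CPM (median 10937) in female SMC mice, with a log2 fold change of 0.39 (SE 0.17, adjusted p = 0.329). Mt-Co1, the catalytic subunit of complex IV, gave 0.31 (SE 0.19, adjusted p = 0.539) in females and 0.19 (SE 0.19, adjusted p = 0.784) in males. Mt-Co2, mt-Co3, mt-Atp6 and mt-Atp8 are uncertain. Their group means were between 7.55 and 46.9 CPM, where mt-Co1 and mt-Cytb had group means between 8387 and 23842 CPM. Near-identical copies of mitochondrial sequence lie in the nuclear genome, and how reads with several matches were counted is not given in the sources used here. The mt-Co2 value of 0.66 (SE 0.15, adjusted p = 0.0496) in females passed the threshold in only 4 of the 24 fits that left out 1 library. Averaged over the sexes, 1 of the 6 was called, mt-Co2 (all genes 2.36%), and 3 had an unadjusted p under 0.05 (all genes 17.5%). The averaged mt-Co2 value stayed between 0.40 and 0.49 when each library was left out in turn. Of those fits, only the one without male SMC replicate 18 lost the call (edgeR, adjusted p = 0.0551).

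Other genes of the pathway were measured from lists that the rule does not take. Cyc1 and Ndufa4, subunits of complexes III and IV with other names, and Cycs, cytochrome c, had log2 fold changes from -0.12 to -0.01 in males and from -0.10 to -0.003 in females, and from 0.18 to 0.24 for sham males over sham females. Among 6 assembly factors of complex III, 1 had an unadjusted p under 0.05 in males, Uqcc2 at -0.23, and none in females. Among 16 tested assembly factors of complex IV with other names, 0 passed that level in males (all genes 11%) and 3 in females (all genes 12.5%), Higd2a (0.18) and Surf1 (0.14) higher and Higd1a (-0.31) lower. None of 5 assembly factors of complex V and none of 4 subunits of complex II passed it in either sex. The list of 8 regulators included Ppargc1a, Esrra, Nrf1, Gabpa and Yy1. The only one of them under that level was Tfam, which packs mitochondrial DNA and starts its transcription, at -0.29 (SE 0.11, adjusted p = 0.237) in females. No gene of these lists was called in either sex by edgeR, other than mt-Co2.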

How the data were processed

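RNA from the gastrocnemius of 24 mice was depleted of ribosomal RNA and made into directional libraries by the authors, who deposited raw read counts per Ensembl gene, 1 column per mouse, without normalization. The submitters' processing notes name cutadapt 1.16, STAR 2.7.9a, featureCounts 1.6, DESeq2 1.34.0 and GRCm39. The annotation release, the strand setting and the treatment of reads with several matches are not given in the sources used here. Groups follow the labels for sex and cage.

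Genes were kept by edgeR's filterByExpr (16408 of 55416), scaled by TMM and fitted with 1 mean per group (edgeR 4.0.16, R 4.3.3, glmQLFTest, two-sided). Standard errors come from this fit. The contrasts were the SMC effect in each sex, its average over both, the difference between the sexes, and sham males against sham females. Log2 CPM used a prior count of 2. A slow fibre score is the mean log2 CPM of 10 slow fibre genes. Isoform ratios had 0.5 added to each count. The script was tested on simulated data. Precision is set by the spread between 6 mice and, for genes of few counts, by depth.

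Biotypes, exon lengths and gene positions came from GENCODE M21 (GRCm38) and promoters from RefSeq (GRCm38.p6), matched by identifier or symbol; the counts were made on another build. Exon length is the union over transcripts, which lowers levels per kb of genes with long rare exons. Members and lists were chosen with earlier results of these data known.

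Named members were those called in any contrast, the 3 with the smallest unadjusted p per complex in each sex and in sham mice, the 2 highest per complex, the isoform pairs, the c subunit genes and Cox7a2l. Uqcrc2, Cox10, Cox11, Cox18, Cox20, Atp5c1 and Atp5d were added after their values were seen. The alternatives were DESeq2 1.42.0, at least 10 counts in every library, no filter, only the 12 libraries of a sex, limma 3.58.1 voomWithQualityWeights, the slow fibre score as covariate, leaving out the 2 libraries low in slow fibre genes, and leaving out each library.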

Additional observations from a re-analysis of the deposited data

Results flagged for a closer look

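Among 148 sets of 6 values that were examined (27 members, 5 mean scores and 5 ratios in each of 4 groups), 11 had 1 library whose gap to its nearest neighbour exceeded Dixon's 95% critical share of the range. Chance flags about 1 in 20 groups, which would be 7.4 here, and the sets share libraries.

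Male sham replicate 4 accounted for 3 of them, with Atp5a1 at 858 CPM against 1195 to 1354 in the other male sham mice, Atp5b at 1113 CPM against 1479 to 1686, and a slow fibre score of 2.01 against 6.28 to 7.34. Female sham replicate 7 accounted for 4, with Cox16 at 10.6 CPM against 6.75 to 7.93, a slow fibre score of 1.47 against 6.58 to 7.60, a log2 ratio of Cox7a1 to Cox7a2 of 0.31 against 0.51 to 0.63, and a log2 ratio of Cox8b to Cox8a of 3.96 against 3.57 to 3.70. Male SMC replicate 14 had a log2 ratio of Cox4i2 to Cox4i1 of -8.84 against -8.27 to -8.12, and a log2 ratio of Atp5g1 to Atp5g2 plus Atp5g3 of -0.10 against 0.04 to 0.12. In female SMC mice, replicate 23 had a log2 ratio of Cox6a2 to Cox6a1 of 5.50 against 5.23 to 5.33, and replicate 21 a log2 ratio of Atp5g1 to Atp5g2 plus Atp5g3 of -0.17 against 0.04 to 0.11.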

How the results depend on the processing

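No paired analysis was made, because the labels record no pairing of sham with SMC mice. The study's methods state that sham and SMC mice shared housing as pairs in some experiments, without naming which. All alternatives were listed as planned, but the 2 libraries left out together were picked by their slow fibre genes in these same data. Medians of complexes III, IV and V in males were -0.08, -0.08 and -0.05 in the main fit. They were -0.13, -0.13 and -0.09 with the slow fibre score and -0.17, -0.16 and -0.13 without the 2 libraries low in slow fibre genes. That of complex V on average was -0.01 in the main fit and -0.07 with the score. The median SE of a member in males was 0.11. Of the values of single named genes 1 changed sign, the sex difference of Cox15, which was -0.0064 without the 2 libraries. Members called were 1 in males by voom, 1 in females by DESeq2 and 2 with the slow fibre score as covariate, and on average over the sexes 0 with no filter and 5 with the slow fibre score. In sham mice 2 were called with the slow fibre score. Members with an unadjusted p under 0.05 were, in males, 1 with at least 10 counts in every library, 1 with only the 12 male libraries, 4 by voom, 8 with the slow fibre score and 8 without the 2 libraries. In females they were 13 with the slow fibre score and 8 without the 2 libraries, and 38 members were then below 0 with the slow fibre score. On average they were 10 by voom, 14 with the slow fibre score and 13 without the 2 libraries. For the sex difference they were 2 by voom and 3 without the 2 libraries. In sham mice they were 13 by voom, 20 with the slow fibre score and 23 without the 2 libraries. The shares of all genes at that p were not counted for these alternatives, so the changes in count are not results about the members. The female log2 ratio of Cox6a2 to Cox6a1 was 0.43 without the 2 libraries. The causes were not tested.

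Leaving out 1 library at a time gave 0 to 1 called members in females, 0 to 2 on average and 0 to 1 in sham mice. Members with an unadjusted p under 0.05 ranged from 1 to 6 in males, 4 to 8 in females, 4 to 12 on average, 1 to 3 for the sex difference and 3 to 31 in sham mice. For most of these fits the shares of all genes at that p were not counted. Members below 0 ranged from 28 to 46 in males, 18 to 30 in females, 25 to 40 on average and 21 to 40 for the sex difference. Log2 ratios ranged from -0.0500 to 0.256 for Cox4i2 to Cox4i1 in females, from 0.14 to 0.43 for Cox6a2 to Cox6a1 in females and -0.0218 to 0.276 in sham mice, from -0.106 to 0.0558, 0.14 to 0.21 and 0.17 to 0.25 for Cox7a1 to Cox7a2 in males, females and sham mice, and from 0.10 to 0.16 and -0.0159 to 0.0472 for Atp5g1 to Atp5g2 plus Atp5g3 in females and sham mice. With 6 mice a group, the median SE of 0.11 for a member within a sex sets the precision, against 0.25 for Cox4i2 in each sex.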
